A study of Sus scrofa with 10 samples.

Results

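This account covers 10 genes that control the making, upkeep and wasting of skeletal muscle fibres. They are the 4 myogenic bHLH factors MYOD1, MYOG, MYF5 and MYF6, the satellite cell factor PAX7, the MADS box factors MEF2A and MEF2C, the growth inhibitor MSTN (myostatin), and the ubiquitin ligase genes FBXO32 and TRIM63. They were chosen by symbol, and each symbol matched exactly 1 of the 25880 genes in the deposited table. RNA of Northeast Min pigs, a breed sampled here at 60 days of age, was sequenced in 10 libraries. The skeletal muscles were psoas major, a muscle of the loin, and longissimus dorsi, the long muscle of the back. The other 7 single tissues were heart, liver, spleen, lung, kidney, subcutaneous adipose tissue and ovary, and the tenth library was a pool of tissues. No treatment or genotype is named, and the number of animals behind each library is not given in the sources used here.

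Each tissue had 1 library, so differences below were not checked against replicates and carry neither errors nor p-values. Levels are in FPKM, fragment counts scaled to transcript length and library depth, a unit inferred from the values. Differences are on the scale of log2(FPKM + 1), which understates the change of low genes. The summed FPKM of a library lay between 292495 and 369254. Depth, estimated from the spacing of low values in short genes, was between 11.5 M and 20.0 M fragments, uncertain by a factor of 2. The muscle labels fitted the markers of the skeletal fibre. All 7 fibre markers were higher in both muscles than in every other tissue, and the lowest of them in a muscle was the calcium channel gene CACNA1S at 106 FPKM in psoas major.

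The myogenic bHLH factors act in sequence. MYF5 and MYOD1 commit precursor cells to the muscle lineage, MYOG drives their differentiation into fibres, and MYF6 (also called MRF4) persists in the mature fibre. PAX7 marks satellite cells, the resident stem cells that lie against the fibre. MEF2 proteins bind regulatory DNA together with the bHLH factors and also work in heart, brain, bone and lymphocytes. Myostatin is secreted by muscle and limits its growth through activin type II receptors. FBXO32 (atrogin-1) and TRIM63 (MuRF1) tag muscle proteins for the proteasome and are the standard markers of muscle wasting.

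The members fell into 3 kinds of profile. MYOD1, MYOG, MYF6, PAX7 and MSTN stood at 1 FPKM or more in the skeletal muscles alone. MEF2A, MEF2C and FBXO32 were present in nearly every tissue, and TRIM63 was present in striated muscle, with its highest level in heart. MYF5 was under 1 FPKM in all 9 tissues. Of the 10 members, 7 were higher in both muscles than in each of the other 7 tissues. MYF5 did not reach the level minimum of 1 FPKM in any tissue, and without it the count was 6. Of the 15637 genes that reached the minimum in at least 1 tissue, 3.28% had such a profile. Of the 9 members that reached it, 5 did so through muscle alone and so had to differ. Their count is a description and supports nothing further.

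**Figure D1:**
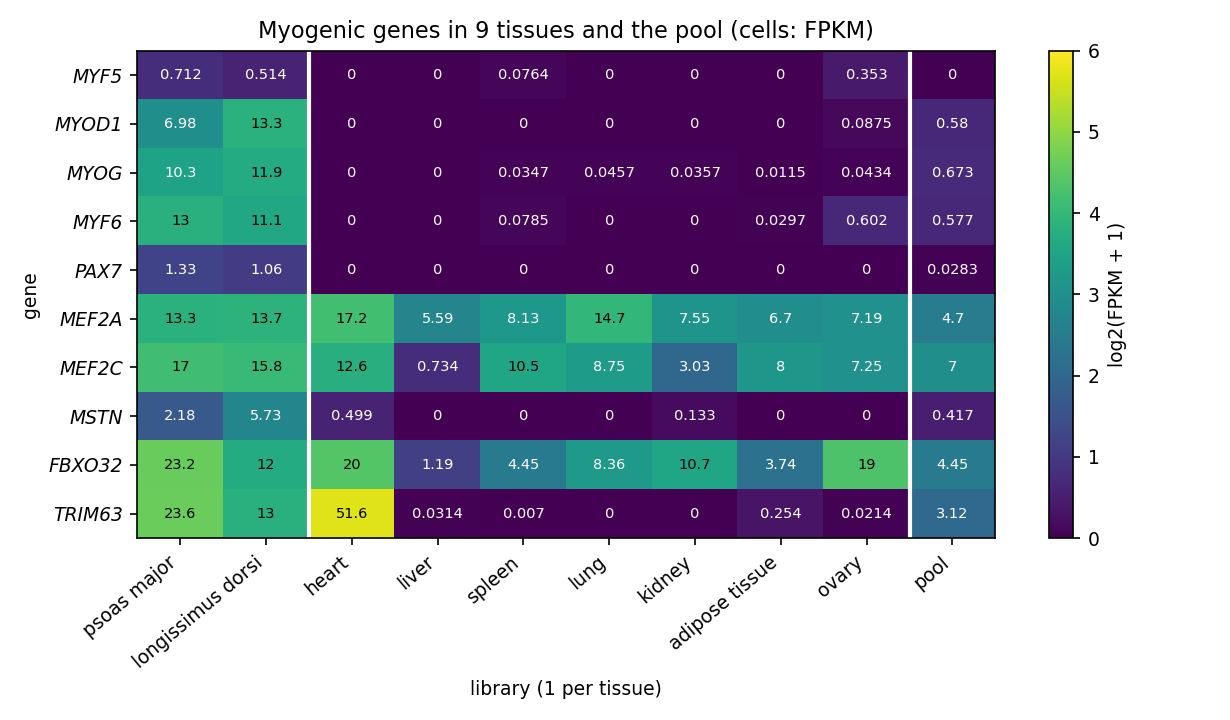
Levels of the 10 genes (rows) in the 9 tissues and the pool (columns, 1 library each). Each cell prints the FPKM and its colour gives log2(FPKM + 1); white lines set off the skeletal muscles on the left and the pool on the right. The bHLH factors, PAX7 and MSTN are dark outside muscle, with no value above 0.602 FPKM in the other 7 tissues, while MEF2A, MEF2C and FBXO32 are bright across most columns.

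MYOG (ENSSSCG00000034654, chromosome 9, 113779112 to 113785381, minus strand, Sscrofa11.1) stood at 10.3 FPKM in psoas major and 11.9 in longissimus dorsi. It was listed at 0 in heart and liver and did not exceed 0.0457 FPKM, the value in lung, in the other tissues. MYF6 (ENSSSCG00000026533, chromosome 5, 100760487 to 100764767, minus strand) stood at 13.0 FPKM in psoas major and 11.14 in longissimus dorsi. Its highest value elsewhere was 0.602 in ovary, followed by 0.0785 in spleen and 0.0297 in adipose tissue. For both genes the muscles lay far above every other tissue, and the muscles lay close to each other.

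MYOD1 (ENSSSCG00000013375, chromosome 2, 41421795 to 41424482, minus strand) stood at 6.98 FPKM in psoas major and 13.3 in longissimus dorsi. It was listed at 0 in 6 of the other 7 tissues and at 0.0875 in ovary. MYOD1, MYOG and MYF6 met the rule for enrichment, in which the muscle mean of FPKM + 1 had to exceed each other tissue by 5-fold or more. That rule was met by 0.62% of all genes tested. The fold was 11.6 for MYOG, 10.2 for MYOD1 and 8.15 for MYF6.

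MYF5 (ENSSSCG00000000937, chromosome 5, 100753501 to 100755494, minus strand) is the neighbour of MYF6, with 4992 bp between their gene models. It stood at 0.712 FPKM in psoas major, 0.514 in longissimus dorsi, 0.353 in ovary and 0.0764 in spleen, and was listed at 0 in the other 5 tissues. If its whole span were transcript, these values would correspond to about 16.3, 13.2, 8.30 and 1.82 fragments at the estimated depths. A shorter transcript would give fewer, and the depths are uncertain by a factor of 2. The muscles were the highest tissues, but the distance to ovary rests on a few fragments, and no fold is given. An unnamed gene model on the opposite strand spans both genes. It did not exceed 0.0209 FPKM in any tissue.

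The 3 factors with higher levels took unequal shares of the bHLH total in psoas major and similar shares in longissimus dorsi. MYF6 made up 41.9% of the summed FPKM of the 4 factors in psoas major and 30.2% in longissimus dorsi. The share of MYOD1 was 22.6% in psoas major and 36.0% in longissimus dorsi. MYOG held 33.2% and 32.4%, and MYF5 2.30% and 1.40%. MYF6 was thus the highest of the 4 in psoas major. In longissimus dorsi MYOD1 was highest by a small margin. With 1 library per muscle, the order of the factors was not checked against replicates. MYF6 was more abundant than 74.5% of the genes detected at 1 FPKM or more in psoas major, and MYOD1 than 77.8% of those in longissimus dorsi.

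Across the 7 other tissues the 4 factors gave 28 values, of which 17 were 0 and none reached 1 FPKM. All 4 were listed at 0 in heart and in liver, and none in ovary. Ovary held the highest value outside muscle for MYOD1, MYF5 and MYF6. Other muscle genes also had ovary as their highest tissue outside muscle, among them CDH15 (4.04 FPKM), SCN4A (3.59), MYH3 (3.47) and VGLL2 (1.22). The 7 fibre markers summed to 4.49 FPKM in ovary, 44.3 in adipose tissue and 7.34 in spleen, and MYL11, a fast myosin light chain, stood at 0.0501 in ovary against 13.3 in adipose tissue. The part of muscle tissue in these ovary values was not tested.

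PAX7 (ENSSSCG00000034627, chromosome 6, 77161479 to 77267417, plus strand) stood at 1.33 FPKM in psoas major and 1.06 in longissimus dorsi, and was listed at 0 in all 7 other tissues. Among members above 1 FPKM in muscle it was the lowest, with 6.16% of detected genes below it in psoas major and 1.57% in longissimus dorsi. Per kilobase, MYOG transcripts outnumbered those of PAX7 by 7.73 times in psoas major and 11.3 times in longissimus dorsi. In whole tissue, fewer cells of a type and less RNA per cell cannot be told apart. PAX3, a related factor of limb muscle precursors, stood at 0 in psoas major and 0.0264 FPKM in longissimus dorsi, below its value of 0.552 in ovary.

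A list of 22 other satellite cell and myoblast regulators and surface proteins was examined for context, of which 21 reached 1 FPKM in at least 1 tissue. Of these, 6 were higher in both muscles than in all other tissues and 1 was lower, against 3.28% and 18.2% of all genes tested. Among the 6, 2 reached 1 FPKM in muscle alone and so had to be higher there. The median difference between muscle and the other tissues was 0.45, against -0.64 over all genes tested. VGLL2, a cofactor of TEAD proteins in muscle, met the enrichment rule at 26.8 FPKM in psoas major and 22.2 in longissimus dorsi, with 1.22 in ovary, the next tissue. CDH15, which encodes the M-cadherin of satellite cells, stood at 8.63 and 11.3 in the muscles and 4.04 in ovary. EYA4, a transcriptional cofactor, stood at 10.4 and 13.0, and SIX4 and PITX3 were also among the 6.

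Several surface proteins often used to sort satellite cells had their highest level outside skeletal muscle. ITGA7, an integrin of the fibre membrane whose gene model overlaps TMT1B, stood at 138 FPKM in adipose tissue, 63.5 in heart, 50.8 in psoas major and 44.0 in longissimus dorsi, and at 4.42 or less in the other 5 tissues. SDC4, a syndecan of satellite cells, was lower in both muscles (2.67 and 2.1 FPKM) than in every other tissue. CALCR, the calcitonin receptor of quiescent satellite cells, stood at 0.377 and 0.333 in the muscles and 9.66 in ovary. Its gene model overlaps VPS50.

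Most tested genes of fusion and of immature fibres were found in both muscles, but MYL4 stood at only 0.113 and 0.0599 FPKM there. MYMX was not matched by name. ACTC1 (3517 FPKM) and MYL4 (10.6) had their highest level in heart. Of 7 tested genes, 5 were higher in both muscles than in all other tissues, against 3.28% of all genes tested. The enrichment rule was met by 2, MYH3 and MYH8, against 0.62% of all genes tested. Of the 5, MYH8 reached 1 FPKM in both muscles and nowhere else, and so had to be higher there. CHRNG reached it in psoas major alone and so had to be higher in that muscle. MYH8, the perinatal myosin heavy chain, stood at 51.3 FPKM in psoas major and 65.5 in longissimus dorsi, and MYH3, the embryonic form, at 41.5 and 27.8. Myosin heavy chain genes are near-identical in places, so their values are uncertain. MYMK, which encodes the fusion protein myomaker, stood at 2.12 and 3.68, with 1.44 in heart. CHRNG, the fetal subunit of the acetylcholine receptor, stood at 1.2 and 0.485 and overlaps CHRND.

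Partners and inhibitors of the bHLH factors lay near the background in muscle. Of the 13 tested genes, none was higher in both muscles than in all other tissues and 1 was lower. Over all genes tested these shares were 3.28% and 18.2%. The median difference of -0.81 was close to the -0.64 of all genes. The most abundant in both muscles were ID3, at 30.1 and 14.2 FPKM, and TCF4, at 17.1 and 13.2. Their highest levels were 156 in ovary for ID3 and 47.7 in adipose tissue for TCF4. TCF3, whose E proteins pair with the myogenic factors, stood at 2.89 FPKM in psoas major and 2.91 in longissimus dorsi. That was below every other tissue, as it was for 18.2% of all genes tested. TCF12, another E protein gene, stood at 8.93 and 7.25, and spleen had the highest level at 32.5. ID2, which encodes an inhibitor that sequesters E proteins, stood at 2.82 and 1.65 in the muscles and 2.18 in heart, against 39.7 in lung. MSC, a bHLH repressor, stood at 0.552 and 0.287 in the muscles and 37.9 in spleen. TWIST1 was not matched by name.

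MEF2C (ENSSSCG00000014149, chromosome 2, 96122044 to 96296902, minus strand) stood at 17.0 FPKM in psoas major and 15.8 in longissimus dorsi. Heart followed at 12.6, spleen at 10.5, lung at 8.75, adipose tissue at 8.0, ovary at 7.25, kidney at 3.03 and liver at 0.734. The muscles lay above all other tissues, but the mean of both was only 1.30 times the level in heart. From lowest to highest tissue MEF2C spanned 23.2-fold.

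MEF2A (ENSSSCG00000028771, chromosome 1, 138341158 to 138511314, plus strand) was the more even of the pair. It was highest in heart at 17.2 FPKM and in lung at 14.7, followed by longissimus dorsi at 13.7 and psoas major at 13.3. The remaining tissues lay between 5.59 in liver and 8.13 in spleen, so the whole range was 3.08-fold. In both skeletal muscles MEF2C exceeded MEF2A, and in heart MEF2A was 1.36 times MEF2C.

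The other MEF2 genes differed in profile. MEF2D was higher in both muscles (25.5 FPKM in psoas major, 19.5 in longissimus dorsi) than in heart (15.4) and every other tissue. MEF2B was lower in both muscles (4.25 and 3.89) than in every other tissue. Of the 12 genes in the list of MEF2 relatives and cofactors, 3 were higher in both muscles than everywhere else (3.28% of all genes tested) and 2 were lower (18.2%). The median difference of -0.65 was close to the -0.64 of all genes. SRPK3, a kinase gene that MEF2 controls in muscle, stood at 35.5 and 43.5 in the muscles and 32.6 in heart. Its gene model overlaps IDH3G. The class IIa histone deacetylase genes HDAC4, HDAC5, HDAC7 and HDAC9, whose products repress MEF2, were all below their heart level in both muscles, and HDAC5 stood at 10.1 and 9.38 against 26.0. Of all genes compared between heart and muscle, 76.6% were higher in heart on average.

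MSTN (ENSSSCG00000016047, chromosome 15, 94620269 to 94628630, minus strand) stood at 2.18 FPKM in psoas major and 5.73 in longissimus dorsi. It stood at 0.499 in heart and 0.133 in kidney and was listed at 0 in the other 5 tissues. The order was longissimus dorsi, psoas major, heart and kidney. The mean of both muscles was 7.93 times the level in heart. On the scale of FPKM + 1 the fold was 3.31, short of the 5-fold rule.

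Genes of the myostatin pathway did not share that profile. Of 21 tested genes, none was higher in both muscles than in all other tissues and 3 were lower (FURIN, SMAD2 and SMAD7). Over all genes tested these shares were 3.28% and 18.2%, and the pathway's median difference of -0.47 stood beside -0.64, so the list lay near the background. Among the receptors, ACVR2B stood at 3.67 FPKM in psoas major and 3.71 in longissimus dorsi, below 4.2 in kidney, and ACVR2A at 1.03 and 1.84. Their gene models overlap SLC22A13 and ORC4. Among the secreted antagonists, FST (follistatin) stood at 5.26 and 10.4 in the muscles and 50.7 in ovary. WFIKKN2, which binds the myostatin propeptide, stood at 2.20 and 4.22 against 13.0 in heart and 40.9 in ovary. FSTL3 stood at 2.21 and 3.51, and was higher in heart at 17.3. BMP1, a protease that frees myostatin from its propeptide, stood at 19.0 in psoas major and 6.99 in longissimus dorsi. GDF11, the closest relative of MSTN, was highest in ovary at 4.75 and stood at 1.10 and 0.736 in the muscles. Its gene model overlaps SARNP.

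FBXO32 (ENSSSCG00000005981, chromosome 4, 15895092 to 15930934, plus strand) was found in every tissue. It stood at 23.2 FPKM in psoas major, 20.0 in heart, 19.0 in ovary, 12 in longissimus dorsi and 10.7 in kidney. Lung (8.36), spleen (4.45), adipose tissue (3.74) and liver (1.19) were lower. The skeletal muscles therefore overlapped the other tissues, with heart and ovary between them.

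TRIM63 (ENSSSCG00000027684, chromosome 6, 83488973 to 83508007, minus strand) was confined to striated muscle among these 9 libraries at the level of 1 FPKM. It stood at 51.6 FPKM in heart, 23.6 in psoas major and 13.0 in longissimus dorsi, and the next tissue was adipose at 0.254. In heart it was more abundant than 92.6% of detected genes. TRIM63 and FBXO32 were at nearly the same level in each skeletal muscle, with ratios of 1.02 in psoas major and 1.08 in longissimus dorsi, while in heart TRIM63 was 2.58 times FBXO32.

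**Figure D2:**
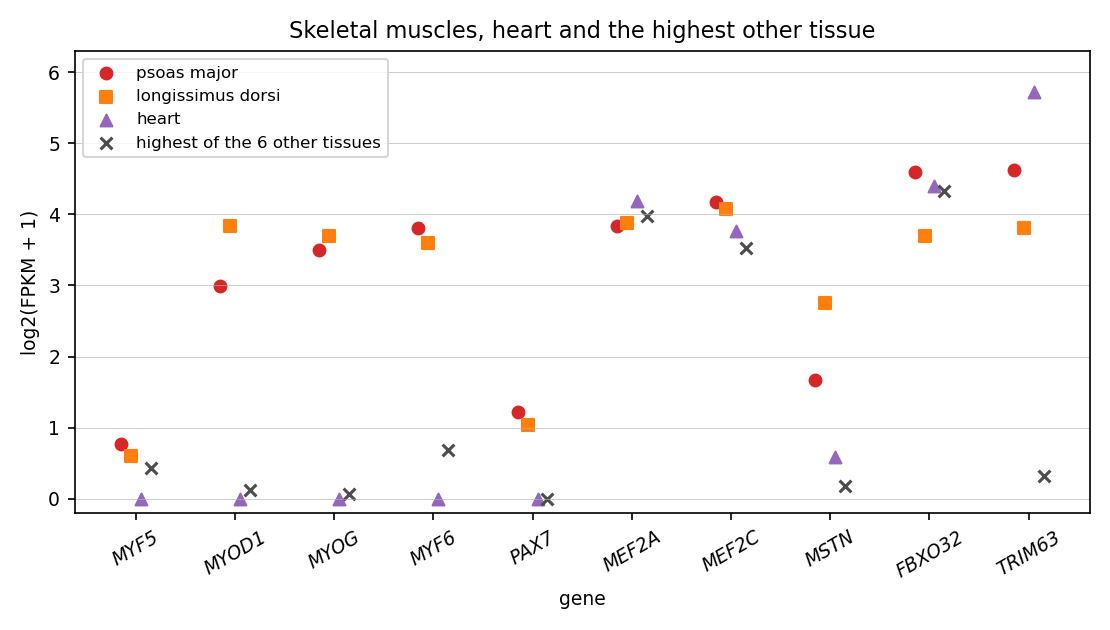
Level of each gene (x axis) as log2(FPKM + 1) (y axis) in psoas major, longissimus dorsi and heart and in the highest of the 6 remaining tissues, 1 library each. The 4 bHLH factors and PAX7 sit at 0 in heart, MSTN sits at 0.499 FPKM there, and TRIM63 is highest in heart at 51.6 FPKM.

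The MuRF relatives of TRIM63 were also confined to striated muscle. TRIM54 (MuRF3), whose gene model overlaps UCN, stood at 50.9 FPKM in psoas major, 48.5 in longissimus dorsi and 23.4 in heart. TRIM55 (MuRF2) stood at 16.2, 8.26 and 49.4, and no other tissue exceeded 0.837 for either gene. Heart was thus the highest tissue for TRIM55, as for TRIM63, and the lowest of the 3 striated tissues for TRIM54.

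The wider list of atrophy and proteolysis genes held genes of both directions. Of 23 tested genes, 3 were higher in both muscles than in all other tissues (TRIM54, EIF4EBP1 and ZFAND5) and 2 were lower (GABARAPL1 and FBXO21), with a median difference of 0.00113. Over all genes tested, 3.28% were higher, 18.2% were lower and the median was -0.64. EIF4EBP1, a repressor of translation, stood at 49.6 and 76.7 FPKM in the muscles and 33.2 in adipose tissue. The transcription factor genes FOXO1 and FOXO3, which drive FBXO32 and TRIM63 in wasting, were not high in muscle. FOXO1 stood at 4.30 and 5.66 against 16.5 in adipose tissue, and FOXO3 at 6.67 and 2.29 against 16 in lung.

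Genes of the neuromuscular junction, several of them textbook targets of MYOG, had mixed profiles. Of 8 tested genes 4 were higher in both muscles than in all other tissues, against 3.28% of all genes, and the median difference was 1.06. Of the 4, CHRNA1 and CHRND reached 1 FPKM in both muscles and nowhere else, and so had to be higher there. CHRNG reached it in psoas major alone and so had to be higher in that muscle. The other 4 had their highest level elsewhere, DOK7 in heart (8.35 FPKM), LRP4 in lung (8.75), and COLQ (8.39) and CHRNE in ovary. CHRNA1 and CHRND, subunits of the acetylcholine receptor, stood at 2.79 and 3.41 FPKM in psoas major and at 3.21 and 2.0 in longissimus dorsi. Both were listed at 0 in heart. SCN4A, the sodium channel of skeletal muscle, met the enrichment rule at 24.1 and 21.9. CHRNE, the adult receptor subunit, stood at 21.8 in ovary against 3.79 and 3.36, but its gene model overlaps MINK1. MUSK, the kinase that organises the junction, stayed under 1 FPKM everywhere. CHRNB1 and RAPSN were not matched by name.

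**Figure D3:**
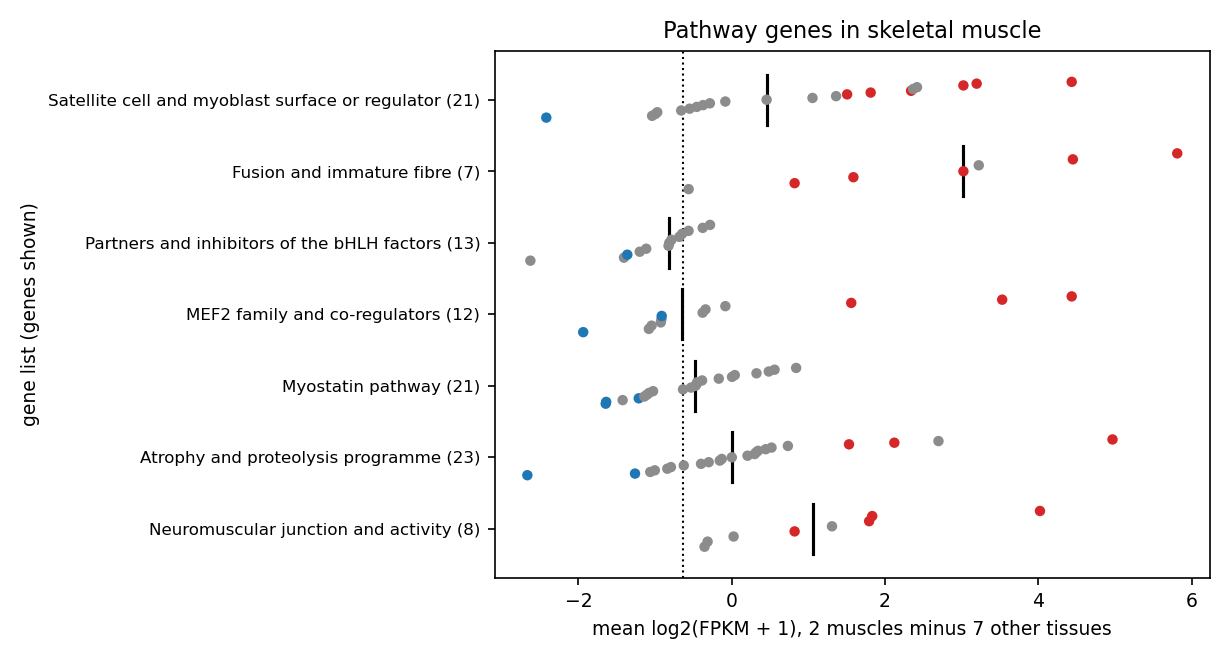
Difference between the mean log2(FPKM + 1) of both muscles and that of the 7 other tissues (x axis) for each tested gene of the 7 lists (y axis, number of genes in brackets). Red points were above all other tissues in both muscles, blue points below all, black bars are list medians and the dotted line is the median of all genes, -0.64. The list of fusion and immature fibre genes has its median at 3.02, and the list of bHLH partners and inhibitors at -0.81.

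The muscles were then compared with each other. Over the 10513 genes at 1 FPKM or more in either muscle, the median of psoas major minus longissimus dorsi was 0.27, so differences are also given relative to it. A difference of at least 1 was found for 6.75% of these genes, 4.66% towards psoas major and 2.09% towards longissimus dorsi. Of the 9 members tested, MSTN passed towards longissimus dorsi and none passed towards psoas major. MSTN differed by -1.08, or -1.35 relative to the median, and 1.74% of genes lay further towards longissimus dorsi. Its FPKM was 2.63 times as high in longissimus dorsi.

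MYOD1 was next in that direction, at -0.84, or -1.11 relative to the median. Its FPKM was 1.90 times as high in longissimus dorsi. FBXO32 and TRIM63 lay on the other side, at 0.90 and 0.81, with FPKM 1.93 and 1.81 times as high in psoas major. Relative to the median they lay at 0.62 and 0.54, and 93.5% and 91.4% of genes lay below them. MYOG (-0.20), MEF2A (-0.04), MEF2C (0.10), PAX7 (0.17) and MYF6 (0.20) lay closer to the median of all genes, between -0.47 and -0.07 relative to it. The untested MYF5 differed by 0.18.

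These calls changed with the scaling. After centring on the median, or median-of-ratios scaling, MYOD1 passed as well, at -1.11 and -1.22. When each library was scaled to the mean sum, FBXO32 and TRIM63 passed at 1.09 and 1.01 and MSTN no longer did, at -0.90. The share of all calls that favoured psoas major was 69.0% as deposited, 83.9% with the mean sum and 36.5% after centring. The directions of these 4 genes did not change under any of the scalings.

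Some pathway genes also differed by at least 1 between the muscles. In the atrophy list, 3 of 23 tested genes were higher in psoas major and 1 in longissimus dorsi. In the satellite cell list these counts were 1 and 3 of 18, and every other list had at most 1 such gene. Over all genes tested the shares were 4.66% and 2.09%. FOXO3, MAP1LC3B and CTSL, a transcription factor, an autophagy and a lysosomal protease gene of the atrophy list, were higher in psoas major, by 1.22, 1.36 and 1.13. TRIM55 was not past the threshold, at 0.90. TRIM32 was higher in longissimus dorsi (1.99 against 0.0334 FPKM), but its gene model lies with that of ASTN2. MAP1LC3B overlaps ZCCHC14. BMP1 was higher in psoas major by 1.32. RBM24, an RNA-binding protein of muscle differentiation (16 against 4.38), and SPRY1, an inhibitor of growth factor signalling (2.77 against 0.0949), were higher in longissimus dorsi. ACTC1, the cardiac actin of immature fibres, stood at 217 against 24.1, and ID3 at 30.1 against 14.2, both higher in psoas major. The gene lists had medians between -0.15 (myostatin pathway) and 0.28 (atrophy), against 0.27 for all genes.

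Markers of several cell types also differed between the muscle libraries. The summed FPKM of the 7 fibre markers was 31639 in psoas major and 52456 in longissimus dorsi, and that of the 5 fibroblast markers 884 and 1412. Among the fibroblast markers LUM went the other way (12.5 against 8.14). Psoas major had higher sums of the 4 smooth muscle markers (187 against 124) and of the 5 leucocyte markers (17.7 against 9.96). Of these, CNN1 was at 25.7 in both muscles and CD3E was lower in psoas major (0.102 against 0.285). The 5 adipocyte markers summed to 86.9 and 92.5, mostly FABP4 (68.7 and 57.0), while PLIN1 (2.17 against 6.56), ADIPOQ (5.42 against 10.1) and LIPE (9.23 against 17.2) were higher in longissimus dorsi. The median difference of the adipocyte markers was -0.79, beside -0.53 for the fibre and -0.62 for the fibroblast markers. The 4 endothelial markers matched (74.7 and 71.6) and the 4 Schwann cell markers matched (14.0 and 18.5) had closer sums. None of these markers was at 0 in either muscle. Their part in the differences of MSTN, MYOD1, FBXO32 and TRIM63 was not tested.

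**Figure D4:**
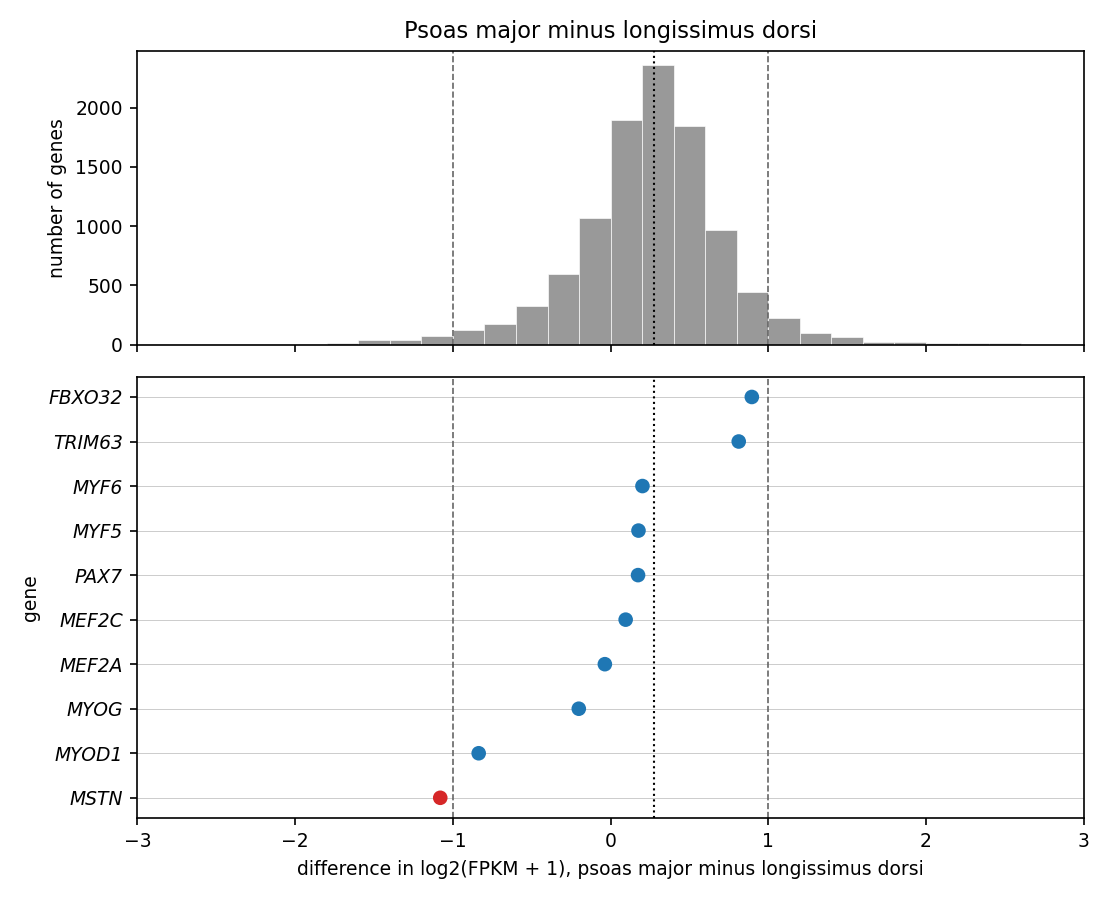
Psoas major minus longissimus dorsi in log2(FPKM + 1) (x axis). The upper panel counts all 10513 genes tested in bins (y axis, number of genes) and the lower panel places the 10 members; dashed lines mark the threshold of 1 either way and the dotted line the median of all genes, 0.27. MSTN, in red, is the member past the threshold, at -1.08, and FBXO32 and TRIM63 lie furthest towards psoas major.

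Heart is the other striated muscle in the series and builds its contractile apparatus without the myogenic bHLH factors. A difference of at least 2 against each skeletal muscle was found for 4.93% of the 11145 genes tested, 3.01% towards heart and 1.91% towards skeletal muscle. Over all genes the median difference was 0.41, higher in heart. MYF6 (-3.70), MYOG (-3.59) and MYOD1 (-3.42) passed towards skeletal muscle, and no member passed towards heart. These genes, PAX7 and MSTN were under 1 FPKM in heart and were tested through the muscles alone. They therefore had to be higher in skeletal muscle, and their direction is a description only. MSTN differed by -2.17 from longissimus dorsi but by -1.09 from psoas major, and did not pass. PAX7 differed by -1.13, from a level that left little room for more.

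TRIM63 was the member furthest towards heart, at 1.5, with 1.91 against longissimus dorsi and 1.10 against psoas major. It did not pass, and 93.3% of genes lay below it. MEF2A (0.33), FBXO32 (0.24) and MEF2C (-0.35) differed little. Relative to the median of all genes they lay at -0.08, -0.17 and -0.76. In the pathway lists 9 genes passed towards skeletal muscle and 5 towards heart, of 87 tested, against 1.91% and 3.01% of all genes tested. Those towards skeletal muscle were CDH15, VGLL2, SIX4, PITX3, EYA4, MYH8, MYH3, EIF4EBP1 and SCN4A. Those towards heart were ACTC1, MYL4, MYOCD, FSTL3 and GABARAPL1. All towards skeletal muscle except EYA4 and EIF4EBP1 were under 1 FPKM in heart, and so had to be higher in muscle. MYL4 and MYOCD were under 1 FPKM in both muscles, and so had to be higher in heart. The counts are therefore a description. MYOCD, a cofactor of cardiac and smooth muscle genes, stood at 6.88 FPKM in heart and 0.148 and 0.0568 in the skeletal muscles. The 5 matched cardiomyocyte markers summed to 12724 FPKM in heart and to 3.55 and 4.64 in the muscles, with NKX2-5 at 0 in both.

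Profiles were also compared over the 9 tissues with Pearson's r of log2(FPKM + 1). With so few points, most of each coefficient comes from the contrast of muscle with the rest, and the pair of muscle libraries is shared by all genes. MYOD1 and MYOG were alike at r = 0.994, MYOG and PAX7 at 0.993, MYOG and MYF6 at 0.989, and MYOD1 and MSTN at 0.969. FBXO32 and TRIM63 had r = 0.614, and MEF2A and MEF2C 0.729. TRIM63 and MEF2A were alike at 0.759.

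Among 13963 other named genes, 74 had an r of at least 0.95 with MYOG, 73 with MYF6, 70 with MYOD1 and 69 with PAX7. The nearest to MYOD1 were AMPD1 (0.9996), CAVIN4 (0.998) and TRIM7 (0.997). AMPD1, the muscle adenylate deaminase gene, stood at 63.1 and 182 FPKM in psoas major and longissimus dorsi. MYH8 (0.9996), ART1 (0.9996) and CACNA1S (0.999) were nearest to MYOG, and KCNC4 (0.999), SYPL2 (0.997) and TRIM72 (0.997) to MYF6. BEST3 (0.999), MYH13 (0.999) and FGF6 (0.998) were nearest to PAX7. FGF6, a growth factor gene of muscle, stood at 1.06 and 0.749 FPKM. For MYF5 they were ART5 (0.993), NOS1 (0.986) and CLIP4 (0.985). The MYF5 profile holds only values under 1 FPKM that rest on few fragments, so these coefficients are uncertain.

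MSTN had 25 genes at that level, led by MAFA and LRRC38 (0.974 each) and GADL1 (0.971). The widely expressed members had few. MEF2A had 2 genes at 0.95 or more, with PPP1R14C (0.975), CCDC9B (0.955) and PDE4D (0.942) nearest. MEF2C had 6, led by UBE2D2 (0.976), PFDN4 (0.973) and MKNK2 (0.971), and FBXO32 had 3, among them C6orf136 (0.963) and RTCA (0.962). TRIM63 had 84, led by MYH6 (0.998), MYL3 (0.997) and MYL2 (0.997), genes of the cardiac and slow sarcomere. MYL3, a myosin light chain, stood at 8244 FPKM in heart, 961 in psoas major and 606 in longissimus dorsi, the same order as TRIM63.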

How the data were processed

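The deposited table holds 1 value per gene and library, made by the authors and read here as FPKM. The header names no unit; non-integer values with unequal sums and the naming of StringTie led to that reading, and a related unit is possible. Per the submitters' processing notes, TopHat2 2.1.0, StringTie 1.2.2 and Sscrofa11.1 were used; the strand setting, filters and annotation release are not given in these sources. All 10 columns were mapped through the labels.

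Symbols came from a table of identifiers (14857 genes). A further 1714 genes took the name of the RefSeq gene with which they overlapped best, by at least 0.5 of both spans. Where a symbol occurred more than once, the row with the largest mean was kept. Skeletal muscle was compared with the other tissues at 5-fold of FPKM + 1 and at least 1 FPKM, the muscles with each other at 1 on the log2 scale, and heart with each muscle at 2. Genes needed 1 FPKM in a compared tissue; for heart, in heart or in both muscles. With 1 library per tissue no test was possible, and the labels give no batch. Members, lists and thresholds were chosen with earlier results of these data known. The rule named all members, the most different or most abundant genes of each list (up to 6) and the 3 named genes nearest each member in r; further list genes were named after their values were seen. A few genes that the rule would name are not reported here. The call rules were run on simulated data of well expressed genes, set at similar levels in all tissues before changes were added. Genes with low mean levels, such as the bHLH factors, PAX7 and MSTN, were not simulated. Alternatives varied pseudocount, filter, threshold and scaling. Python 3.11.15, numpy 2.4.6, pandas 2.3.3 and matplotlib 3.10.9 were used.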

Additional observations from a re-analysis of the deposited data

How the results depend on the processing

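The number of members enriched in skeletal muscle, 3 as reported, became 5 with a pseudocount of 0.1 or a 2-fold threshold (PAX7 and MSTN added) and 0 with a pseudocount of 5; all other alternatives gave 2 to 4. Over all genes the 97 enriched genes became 229 at 2-fold, 59 at 10-fold, 229 without heart among the other tissues and 146 after median-of-ratios scaling. Between the muscles, the 1 member called became 0 with a pseudocount of 5 and 2 after scaling to the mean sum, median-of-ratios scaling or centring. The 710 genes called in that comparison became 1369 and 218 with pseudocounts of 0.1 and 5, and 36.7% and 42.7% of calls favoured psoas major after median-of-ratios and quantile scaling. Between heart and muscle, the 3 members called became 0 with a pseudocount of 5 and 6 at a threshold of 1. The 549 genes called there became 922 and 246 with pseudocounts of 0.1 and 5 and 1758 at a threshold of 1, and the share towards heart, 61.2%, became 46.9%, 46.7% and 43.5% after median-of-ratios scaling, quantile scaling and centring. No call of a member changed sign under any alternative run. The causes of these shifts were not tested. No paired analysis was possible because each tissue has 1 library. Depth limits MYF5, and MYOD1 in ovary, which rest on few fragments by the estimate above. Fragments were not estimated for PAX7, or for MYOG and MYF6 outside muscle, whose values are also low.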

Other observations

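The pooled library entered no comparison. Its label names ovary, muscle, kidney, lung, spleen, liver and heart as its sources. In it MYOG stood at 0.673 FPKM, MYOD1 at 0.580, MYF6 at 0.577, MSTN at 0.417 and PAX7 at 0.0283, and MYF5 was listed at 0. As a percentage of the mean level of both skeletal muscles these were 6.06% for MYOG, 5.73% for MYOD1, 4.79% for MYF6, 10.5% for MSTN and 2.37% for PAX7. The median over the 97 genes enriched in skeletal muscle was 6.65%, with quartiles of 5.82% and 8.53%. The label does not say which muscle went into the pool. No member was higher in the pool than in its highest single tissue, and TRIM63 stood at 3.12 FPKM, FBXO32 at 4.45, MEF2A at 4.70 and MEF2C at 7.0.

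MEF2A in the pool (4.70 FPKM) was below its level in each of the 9 single tissues, whose lowest was liver at 5.59.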
